A study of Mus musculus with 6 samples.

Results

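The metabotropic glutamate receptors Grm2, Grm3, Grm4, Grm5, Grm7 and Grm8 were taken from the ribosome-associated RNA of the mouse medial prefrontal cortex (mPFC) by gene symbol. They are 6 of the 47729 genes in the deposited table, and the 28 transcripts listed under their names are among 115220. Levels are given as FPKM, the fragments of a transcript relative to its length and to the number of fragments mapped in that library, and the gene total is the sum over the transcripts of a gene. The study used CRISPR/Cas9 to mutate Gsk3b, a serine/threonine kinase, in neurons that express the dopamine receptor D2, and compared 3 Ctrl libraries with 3 libraries from mice with Gsk3sKO in mPFC D2 neurons. Both groups were male adult C57BL/6 mice carrying D2Cre (heterozygous), LSL-Flag-Cas9 and RiboTag, injected at 2.5 to 3 months of age and dissected 3 weeks later. The Ctrl mice received an AAV that makes GFP, and the Gsk3sKO mice an AAV that makes GFP and the Gsk3 sgRNA. The control virus carried no sgRNA, so cutting by Cas9 and the mutation of Gsk3b cannot be told apart. Cre came from a bacterial artificial chromosome transgene under control of the D2 receptor gene, and RiboTag puts an HA tag on the ribosomal protein Rpl22 in Cre-expressing cells, with which their ribosomes were precipitated. Whether each library came from 1 mouse or from pooled mice is not given in the sources used here, and all p-values measure the spread between these libraries.

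Metabotropic glutamate receptors are G protein-coupled receptors that bind glutamate with a large extracellular domain and work as dimers. Group I, to which Grm5 belongs, couples to Gq proteins and phospholipase C and sits mostly on the postsynaptic side. Group II (Grm2 and Grm3) and group III (Grm4, Grm7 and Grm8) couple to Gi/o proteins, lower cyclic AMP and restrain transmitter release from axon terminals, and Grm3 is also a receptor of astrocytes.

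Gsk3b, the targeted gene, had gene totals of 35.6, 53.8 and 56.5 FPKM in Ctrl replicates 1 to 3 and of 36.9, 37.0 and 33.6 FPKM in Gsk3sKO replicates 1 to 3, and the groups overlapped, with Ctrl replicate 1 among the Gsk3sKO values (exact permutation test, p = 0.3; limma, log2 fold change -0.40 with SE 0.19, adjusted p = 0.773). Small mutations made by Cas9 can leave a transcript in place, so this level is no check of the labels. The reads behind the FPKM values were estimated at 23.5 to 45.2 M in Ctrl and 28.8 to 41.3 M in Gsk3sKO from the spacing of low values. Between 13.7% and 25.8% of these low values fell within 0.01 of a whole read, so the depth is approximate. The short RNA Gm23935 took 12.9% to 24.9% of the summed FPKM in Ctrl and 7.80% to 13.4% in Gsk3sKO. No library of unprecipitated RNA was among those used, so marker levels cannot show how far the labelled cells were enriched. Drd2 itself was at 1.58, 6.02 and 14.1 FPKM in Ctrl and 8.32, 5.96 and 7.28 FPKM in Gsk3sKO, and the lowest and highest value were both Ctrl. The 8 dopaminoceptive neuron markers summed to 151 to 410 FPKM in Ctrl and 203 to 378 FPKM in Gsk3sKO, with the adenosine receptor Adora2a listed at 0 in Ctrl replicate 1. The summed level of 9 excitatory neuron markers was 1387 to 1831 FPKM and that of 10 inhibitory neuron markers 1136 to 1560 FPKM. Markers of astrocytes, oligodendrocytes, microglia and endothelial cells also had summed levels above 0 in every library.

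All 6 receptors were measured in every library, and their levels spanned more than an order of magnitude. The order was Grm5, Grm3, Grm7, Grm8, Grm2 and Grm4 from the highest to the lowest, and it was the same in 6 of 6 libraries. Mean gene totals in Ctrl were 64.5 FPKM for Grm5, 29.3 for Grm3, 14.1 for Grm7, 8.41 for Grm8, 6.54 for Grm2 and 2.76 for Grm4. Among the 12874 gene totals with a mean of at least 1 FPKM, Grm5 stood above 92.6%, Grm3 above 81.5%, Grm7 above 63.9%, Grm8 above 46.6%, Grm2 above 38.7% and Grm4 above 18.2%. The order was read from these same libraries and is a description, with no test.

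The gaps between neighbours differed in width. Grm5 was 2.03 to 2.59 times Grm3, Grm3 was 1.85 to 2.41 times Grm7, and Grm7 was 1.56 to 2.22 times Grm8 within a library. The narrowest gap was between Grm8 and Grm2, at a ratio of 1.15 to 1.57. The lowest Grm8 value of any library, 6.55 FPKM, lay below the highest Grm2 value, 7.47 FPKM, so this pair was separated within each library but not across libraries. Grm2 was 2.14 to 2.51 times Grm4.

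**Figure D1:**
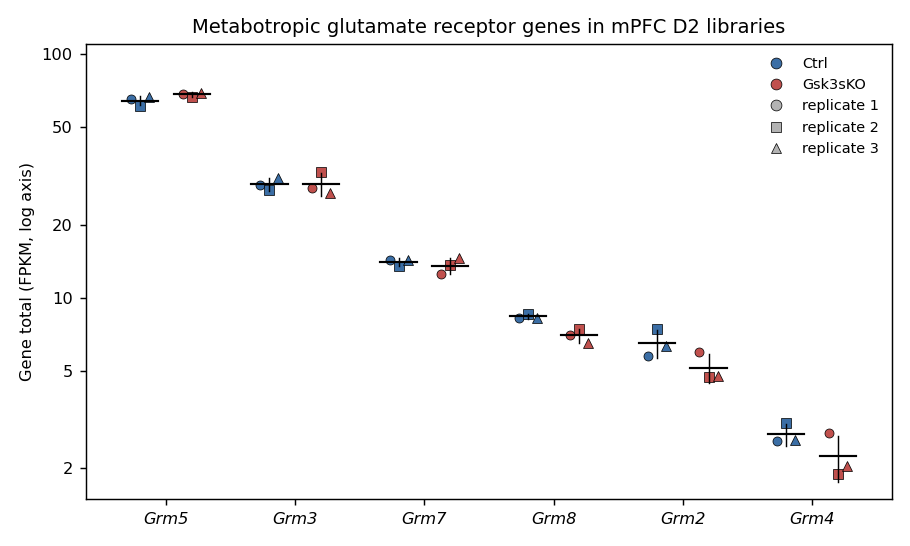
Gene totals in FPKM (vertical log axis) of the 6 receptors in the 3 Ctrl and 3 Gsk3sKO libraries (points), with the group means as bars. The receptors keep 1 order from Grm5 to Grm4 in every library, and the groups are apart without overlap for Grm5 and Grm8.

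No receptor gene total passed the test between Gsk3sKO and Ctrl. With limma on log2(FPKM + 1), 0 of the 6 gene totals passed an unadjusted p of 0.05, where 6.56% of all 12874 gene totals tested passed in either direction (5.2% lower and 1.36% higher in Gsk3sKO). After adjustment 0 of the 6 passed, beside 0.0466% of all. An ordinary linear model without shared variances called 1 of them before adjustment, Grm8 (log2 fold change -0.23, adjusted p = 0.865), beside 5.40% of all gene totals. The fold change was below 0 for 5 of the 6, beside 58.9% of all gene totals, and for 3 of the 6 (Grm2, Grm4 and Grm8) under either of 2 other scalings. At the deposited scaling the median log2 fold change was -0.13, beside -0.06 over all gene totals. The groups did not overlap for 2 of the 6, Grm5 and Grm8, beside 12% of all gene totals. In RNA precipitated from many cells at once, fewer cells that make a receptor and less of its RNA per cell cannot be told apart.

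Grm5, the postsynaptic group I receptor (ENSMUSG00000049583, GRCm38 chr7:87584168-88134907, plus strand), was at 65.7, 61.2 and 66.6 FPKM in Ctrl replicates 1 to 3 against 68.8, 66.8 and 69.3 FPKM in Gsk3sKO replicates 1 to 3. Every Gsk3sKO library was above every Ctrl library, by a gap that was small beside the level. The means were 64.5 ± 2.86 and 68.3 ± 1.33 FPKM (SD, n = 3, as for all such values). The log2 fold change was 0.08 with SE 0.12 and a 95% confidence interval from -0.19 to 0.35 (limma, adjusted p = 0.921), and the exact permutation test on FPKM gave p = 0.1, the smallest p that 3 against 3 libraries can reach. This was the most deeply covered receptor, with an estimated 7598 to 13211 reads a library.

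Grm3, the group II receptor that neurons and astrocytes share (ENSMUSG00000003974, chr5:9485541-9725170, minus strand), was at 29.1, 27.6 and 31.1 FPKM in Ctrl against 28.3, 32.9 and 26.8 FPKM in Gsk3sKO. The Gsk3sKO values enclosed the Ctrl values, with means of 29.3 ± 1.74 and 29.3 ± 3.19 FPKM. The 95% interval of the log2 fold change ran from -0.33 to 0.33 (limma, adjusted p = 0.999; exact permutation test, p = 1). The table lists 1 transcript for this gene. The summed level of 12 astrocyte markers, among them the aquaporin Aqp4 and the glutamate transporter Slc1a2, was 190 to 239 FPKM in Ctrl and 198 to 249 FPKM in Gsk3sKO, and its part in the Grm3 and Grm5 levels was not tested.

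Grm2, the group II autoreceptor of glutamatergic terminals (ENSMUSG00000023192, chr9:106643095-106656082, minus strand), was at 5.79, 7.47 and 6.35 FPKM in Ctrl against 5.98, 4.76 and 4.81 FPKM in Gsk3sKO. Gsk3sKO replicates 2 and 3 lay below all Ctrl libraries, and replicate 1 lay among them. The means were 6.54 ± 0.855 and 5.18 ± 0.692 FPKM, a difference of -20.7%. The log2 fold change was -0.29 with SE 0.21 and a 95% interval from -0.76 to 0.19 (limma, p = 0.207, adjusted p = 0.845), and the exact permutation test gave p = 0.2. The ratio of Grm3 to Grm2 was 4.54 ± 0.734 in Ctrl and 5.74 ± 1.10 in Gsk3sKO, and its ranges overlapped.

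Grm7, the low-affinity group III receptor of the presynaptic active zone (ENSMUSG00000056755, chr6:110645581-111567230, plus strand), was at 14.4, 13.5 and 14.3 FPKM in Ctrl against 12.5, 13.6 and 14.5 FPKM in Gsk3sKO. The groups overlapped, with both the lowest and the highest value in Gsk3sKO. The means were 14.1 ± 0.486 and 13.6 ± 1.03 FPKM, and the 95% interval of the log2 fold change ran from -0.40 to 0.30 (limma, adjusted p = 0.960; exact permutation test, p = 0.7).

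Grm8, a group III receptor with high affinity for glutamate (ENSMUSG00000024211, chr6:27275119-28135178, minus strand), was at 8.31, 8.62 and 8.29 FPKM in Ctrl against 7.03, 7.49 and 6.55 FPKM in Gsk3sKO. Every Gsk3sKO library was below every Ctrl library. The means were 8.41 ± 0.187 and 7.02 ± 0.472 FPKM, a difference of -16.5%, and the 3 Ctrl values lay closer together, relative to their mean, than those of the other receptors. The exact permutation test gave p = 0.1, the smallest it can give. The log2 fold change was -0.23 with SE 0.18 and a 95% interval from -0.64 to 0.17 (limma, adjusted p = 0.857).

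Grm4, the group III receptor best known from the cerebellum (ENSMUSG00000063239, chr17:27422387-27521403, minus strand), was at 2.58, 3.07 and 2.61 FPKM in Ctrl against 2.80, 1.89 and 2.05 FPKM in Gsk3sKO. Gsk3sKO replicate 1 lay among the Ctrl values, and the other two lay below them. The means were 2.76 ± 0.274 and 2.25 ± 0.483 FPKM, with a log2 fold change of -0.22, SE 0.26 and a 95% interval from -0.80 to 0.37 (limma, adjusted p = 0.907; exact permutation test, p = 0.3). An estimated 231 to 538 reads a library stood behind these values, the fewest of the 6 receptors.

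The sizes of these estimates depended on how the libraries were scaled. With median ratio scaling and with scaling to the summed FPKM without Gm23935, the log2 fold change was 0.15 and 0.28 for Grm5, -0.23 and -0.13 for Grm2, -0.17 and -0.06 for Grm8, and -0.17 and -0.10 for Grm4. Without Ctrl replicate 2, the lowest Ctrl library for Grm5, its log2 fold change was 0.046.

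**Figure D2:**
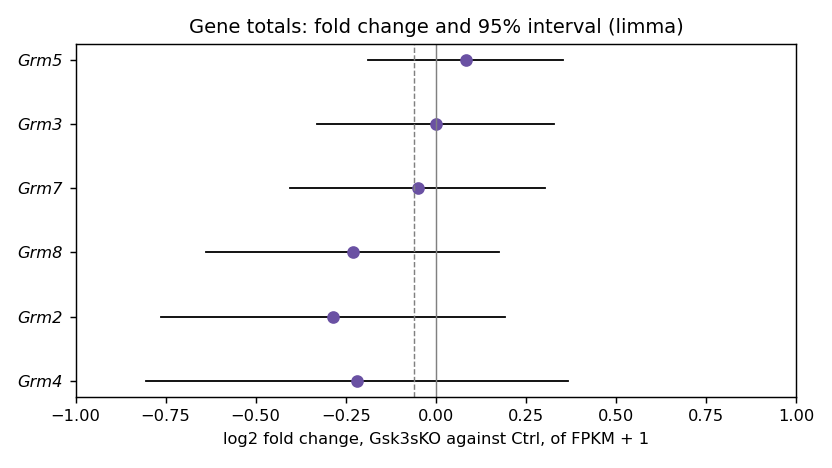
Log2 fold change of Gsk3sKO over Ctrl on log2(FPKM + 1) for the 6 gene totals (points) with 95% confidence intervals from limma (bars) and the median of all gene totals tested (dashed line at -0.06). The interval of every receptor includes 0, and Grm8, Grm2 and Grm4 have the lowest estimates.

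By receptor group, the 6 genes summed to 125.6 ± 3.86 FPKM in Ctrl and 125.7 ± 1.74 FPKM in Gsk3sKO. Group I, here Grm5 alone, made up 51.4% ± 0.910 of this sum in Ctrl and 54.4% ± 1.80 in Gsk3sKO. Group II made up 28.5% ± 0.685 and 27.5% ± 2.04. Group III made up 20.1% ± 0.610 and 18.2% ± 0.431, and its summed level was 25.3, 25.2 and 25.2 FPKM in Ctrl against 22.3, 23.03 and 23.1 FPKM in Gsk3sKO. These shares are a description of genes chosen together, and they were not tested.

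Several of these receptors are made in forms that differ at the C-terminal tail, the part inside the cell that binds scaffold proteins. In the GENCODE M21 annotation of GRCm38, Grm5 has an alternative exon of 96 bases at chr7:88116193-88116288, exon 8 of the 9 exons of Grm5-204 (ENSMUST00000155358), which adds 32 codons to the coding region. The forms are shown because the transcript values below split along this exon. The exon is in capitals, and the flanking 15 bases of the neighbouring exons on each side are in lower case.
Grm5 with the exon: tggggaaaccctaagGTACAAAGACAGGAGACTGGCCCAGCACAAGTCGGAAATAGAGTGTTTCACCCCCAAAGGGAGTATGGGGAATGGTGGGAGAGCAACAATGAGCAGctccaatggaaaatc
Grm5 without the exon: tggggaaaccctaagctccaatggaaaatc

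In Grm7 and Grm8 the last coding bases themselves are replaced. Grm7-201 (ENSMUST00000071076) includes an exon of 92 bases, exon 10 of 11, that holds its stop codon, and Grm7-202 (ENSMUST00000172951) skips it. Grm8-202 (ENSMUST00000115323) and Grm8-203 (ENSMUST00000115324) read 55 bases further into the intron after the exon that Grm8-201 (ENSMUST00000090512) ends earlier, and they stop in this extension. The coding ends with their stop codons are in capitals, after the last 15 bases of the shared exon in lower case, and Grm4 is set beside them because its end is as long as those of Grm7 without the exon and of both Grm8 forms. They lie at chr6:111501510-111501580 and chr6:111566018-111566067 on the plus strand for Grm7, at chr6:27285685-27285734 and chr6:27275645-27275694 on the minus strand for Grm8, and at chr17:27426784-27426833 on the minus strand for Grm4.
Grm7 with the exon: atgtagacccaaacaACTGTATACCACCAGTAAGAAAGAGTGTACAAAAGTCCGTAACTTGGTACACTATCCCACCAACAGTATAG
Grm7 without the exon: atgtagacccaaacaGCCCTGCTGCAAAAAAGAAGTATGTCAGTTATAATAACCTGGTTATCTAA
Grm8 with the extension: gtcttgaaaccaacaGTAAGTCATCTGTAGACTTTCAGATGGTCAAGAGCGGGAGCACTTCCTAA
Grm8 without the extension: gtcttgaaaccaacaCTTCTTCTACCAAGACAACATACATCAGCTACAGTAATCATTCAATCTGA
Grm4: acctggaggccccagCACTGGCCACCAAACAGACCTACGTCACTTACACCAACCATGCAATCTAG

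The 3 group III receptors have similar coding ends in the forms without the exon or the extension. Of the 50 bases in capitals, Grm4 had 60% in common with Grm7 without the exon and 60% with Grm8 without the extension, while Grm7 without the exon and Grm8 without the extension had 54% in common. The end of Grm8 with the extension shared 30% with the end of Grm8 without it. Over the whole coding sequence, identity after global alignment was 66.4% between Grm2 and Grm3 and 68.6% to 69.4% among Grm4, Grm7 and Grm8. It was 54.2% to 57.8% between groups II and III, and 43.1% to 44.9% between Grm5 and the others. Grm4, Grm7 and Grm8 each have a coding exon of 936 bases. The genes differ widely in span, with 922 kb for Grm7, 860 kb for Grm8, 551 kb for Grm5, 240 kb for Grm3, 99.0 kb for Grm4 and 13.0 kb for Grm2.

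Of the 28 transcripts, 26 were above 0 in at least 1 library and 14 had a mean of at least 1 FPKM and were tested. Of the 14, 0 passed an unadjusted p of 0.05 with limma, beside 5.56% of all 21584 transcripts tested, and after adjustment 0 passed among the 14 and 0% of all. The groups did not overlap for 0 of the 14, beside 11.2% of all transcripts tested. The division of reads between overlapping transcripts is an estimate of the assembler, and transcript values of 1 gene can trade places while their sum stays alike. Grm8-202 and Grm8-203, which differ in their 5′ leaders and not in their coding region, were at 0 and 7.21 FPKM in Ctrl replicate 1 but at 6.59 and 0.365 FPKM in Ctrl replicate 2.

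**Figure D3:**
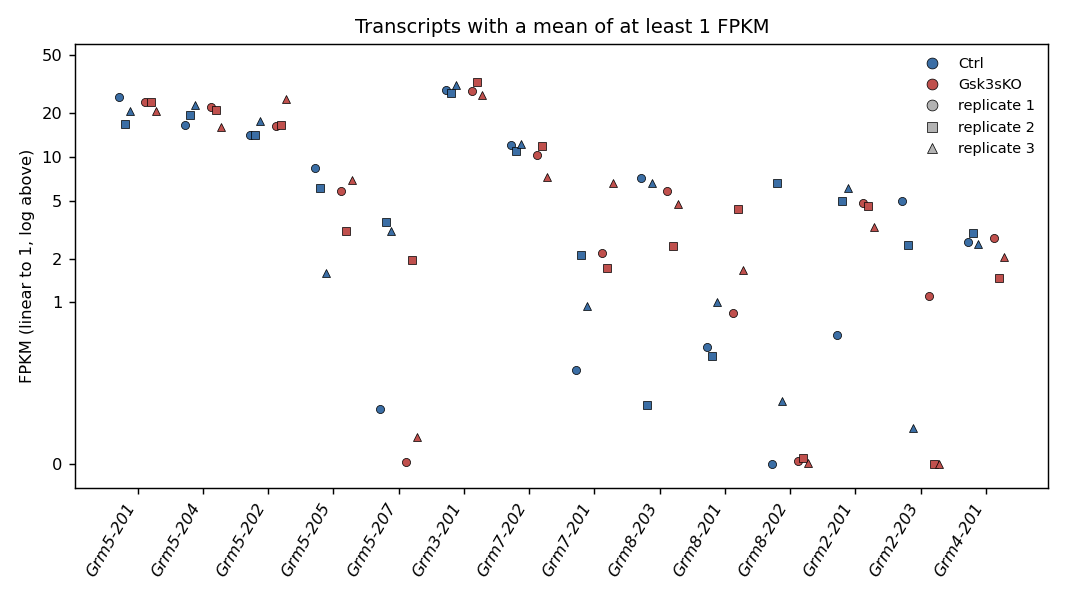
FPKM of the tested transcripts of the receptors (vertical axis linear up to 1 and logarithmic above) in the 3 Ctrl and 3 Gsk3sKO libraries (points). The groups overlap for every transcript, and Grm2-203, Grm8-202 and Grm8-203 spread widely between libraries of 1 group.

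Grm5 transcripts with and without the 96-base exon both had values above 0 in every library. Grm5-204, with the exon and 1203 codons, was at 16.6, 19.6 and 22.99 FPKM in Ctrl and 22.3, 20.9 and 16.1 FPKM in Gsk3sKO (exact permutation test, p = 1; limma, log2 fold change 0.00, SE 0.21). Grm5-201 (ENSMUST00000107263) and Grm5-202 (ENSMUST00000125009), both without it and with 1171 codons, summed to 39.9, 31.0 and 38.6 FPKM in Ctrl and 40.3, 40.5 and 46.1 FPKM in Gsk3sKO. By this estimated division, the form with the exon was below the sum of both others in all libraries. It was at 29.4%, 38.7% and 37.3% of the 3 transcripts in Ctrl and 35.6%, 34.1% and 25.8% in Gsk3sKO (exact permutation test, p = 0.5). As a single transcript, Grm5-204 was the highest of the 3 in Ctrl replicates 2 and 3. Of the remaining tested transcripts of the gene, both without a coding region, Grm5-205 (ENSMUST00000208776) was at 1.58 to 8.47 FPKM and Grm5-207 (ENSMUST00000208878) at 0.00856 to 3.595 FPKM over the 6 libraries.

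Of both tested Grm7 transcripts, the form that skips the 92-base exon was the larger in every library, but only at 52.2% in Gsk3sKO replicate 3. Grm7-202, without the exon and with 915 codons, was at 12.2, 11.03 and 12.2 FPKM in Ctrl and 10.3, 11.9 and 7.26 FPKM in Gsk3sKO (limma, log2 fold change -0.27, SE 0.23; exact permutation test, p = 0.2). Grm7-201, with the exon and 922 codons, was at 0.579, 2.102 and 0.976 FPKM in Ctrl and 2.18, 1.72 and 6.64 FPKM in Gsk3sKO (limma, log2 fold change 0.92, SE 0.54; exact permutation test, p = 0.2). Its share of both transcripts was 4.54%, 16.0% and 7.402% in Ctrl and 17.5%, 12.6% and 47.8% in Gsk3sKO (exact permutation test, p = 0.2). The groups overlapped, and the mean of Gsk3sKO rested largely on replicate 3.

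For Grm8 the FPKM of each transcript overlapped between the groups, and the share of the form without the 55-base extension did not. Of the 4 shares of forms given for Grm5, Grm7, Grm8 and Grm2, it was the only one that was apart. The share of each of the 28 receptor transcripts in its gene total was also computed. Among these, the shares of Grm8-201 and of the low transcripts Grm7-203 and Grm2-202 were apart (exact permutation test, p = 0.1 for each). Neither kind of share was computed for genes other than the receptors. For transcript FPKM, the groups did not overlap for 11.2% of all transcripts tested. Grm8-201, without the extension, was at 0.724, 0.666 and 1.003 FPKM in Ctrl and 0.934, 4.36 and 1.66 FPKM in Gsk3sKO (limma, log2 fold change 0.75, SE 0.50; exact permutation test, p = 0.2). It made up 9.12%, 8.74% and 12.6% of Grm8-201, Grm8-202 and Grm8-203 together in Ctrl and 13.7%, 63.6% and 25.9% in Gsk3sKO (exact permutation test, p = 0.1, the smallest it can give). The lowest Gsk3sKO share was 13.7%, close to the highest Ctrl share of 12.6%. The forms with the extension, which have 908 codons like Grm8-201, summed to 7.21, 6.95 and 6.98 FPKM in Ctrl and 5.88, 2.496 and 4.75 FPKM in Gsk3sKO.

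Grm2 had the least even division. The full-length transcript Grm2-201 (ENSMUST00000023959, 872 codons) was at 0.799, 4.97 and 6.13 FPKM in Ctrl and 4.86, 4.61 and 3.31 FPKM in Gsk3sKO (limma, log2 fold change 0.30, SE 0.57; exact permutation test, p = 1). Grm2-203 (ENSMUST00000201681) lacks 834 of the 1076 bases of exon 4, which is 278 codons in frame at chr9:106647271-106648104, and the missing stretch starts with GT and ends with AG. It was at 4.99, 2.497 and 0.221 FPKM in Ctrl and 1.10, 0 and 0 FPKM in Gsk3sKO (limma, log2 fold change -1.20, SE 0.72; exact permutation test, p = 0.2), and the log2 fold change was -2.82 with a pseudocount of 0.1. Its share ran from 86.2% in Ctrl replicate 1 through 33.4% in replicate 2 to 3.48% in replicate 3, and was 18.5%, 0% and 0% in Gsk3sKO (exact permutation test, p = 0.2). Without Ctrl replicate 3 the log2 fold change of Grm2-203 was -1.84, past an unadjusted p of 0.05 (limma, adjusted p = 0.753).

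Grm4 had 1 tested transcript, Grm4-201 (ENSMUST00000118161, 912 codons), at 2.58, 2.98 and 2.505 FPKM in Ctrl and 2.79, 1.47 and 2.05 FPKM in Gsk3sKO, and the groups overlapped (limma, log2 fold change -0.27, SE 0.33; exact permutation test, p = 0.3). In Gsk3sKO replicate 2, its lowest library, it made up 77.6% of the gene total, and Grm4-202 (ENSMUST00000118489), at 0 in the other libraries, was at 0.423 FPKM. Among transcripts too low to be tested, the short fragment model Grm7-203 (ENSMUST00000173001, 418 bases) was at 0.650, 0.224 and 0.708 FPKM in Ctrl and listed at 0 in all 3 Gsk3sKO libraries. Grm2-202 (ENSMUST00000200826) was at 0 in all Ctrl libraries and at 0.0216, 0.151 and 1.49 FPKM in Gsk3sKO.

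**Figure D4:**
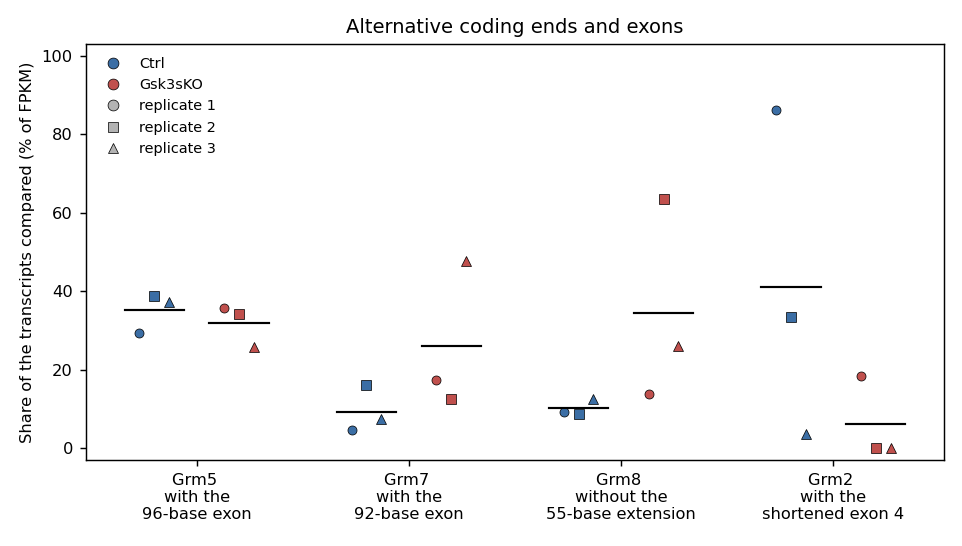
Share in percent (vertical axis) of the form with the 96-base exon for Grm5, with the 92-base exon for Grm7, without the 55-base extension for Grm8 and with the shortened exon 4 for Grm2, in each Ctrl and Gsk3sKO library (points), with group means as bars. The Grm5 shares lie between 25.8% and 38.7%, while those of Grm2 run from 0% to 86.2%.

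The proteins that work with these receptors were set beside them in 3 lists. On the group I side (Gq proteins, phospholipase C, IP3 receptors and Homer and Shank scaffolds), 16 of 17 genes were tested, with 0 higher and 0 lower at an unadjusted p of 0.05 (limma), beside 1.36% and 5.2% of all gene totals, and with a median log2 fold change of -0.01. The highest were Ncdn, a neuronal regulator of mGlu5 signalling, with 278 ± 41.3 FPKM in Ctrl and 234 ± 58.8 in Gsk3sKO (adjusted p = 0.857), and Itpr1, the IP3 receptor of the endoplasmic reticulum, with 148 ± 31.7 and 162 ± 39.4 FPKM (adjusted p = 0.939). Homer1, the scaffold that binds the Grm5 tail, was at 72.0 ± 5.14 and 81.6 ± 9.30 FPKM (adjusted p = 0.857), and was picked after its values were seen.

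On the side of groups II and III (Gi/o proteins, PDZ scaffolds and trans-synaptic partners), 16 of 16 genes were tested, with 0 higher, 0 lower and a median log2 fold change of -0.08. Gnao1, the Go alpha subunit, was at 154 ± 10.5 FPKM in Ctrl and 146 ± 3.30 in Gsk3sKO (adjusted p = 0.932), and Gnb1, a G protein beta subunit, at 129 ± 12.05 and 121 ± 21.7 FPKM (adjusted p = 0.931). Pick1, a PDZ protein that binds the Grm7 tail, was at 14.5 ± 2.12 and 13.4 ± 3.34 FPKM (adjusted p = 0.935). The related Elfn1 and Elfn2, postsynaptic adhesion proteins that bind group III receptors, had estimates in opposite directions. Elfn1 was at 8.83 ± 5.28 and 11.8 ± 2.28 FPKM (adjusted p = 0.861), and Elfn2 at 22.5 ± 1.62 and 18.7 ± 2.11 FPKM (adjusted p = 0.801). The direction of Elfn1 rested largely on Ctrl replicate 2. Its values were 12.4, 2.76 and 11.3 FPKM in Ctrl and 13.7, 12.4 and 9.28 FPKM in Gsk3sKO. Pick1, Elfn1 and Elfn2 were picked after their values were seen.

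Genes for the supply and removal of glutamate and of NAAG, the dipeptide that activates Grm3, were tested in 11 of 13 cases. At the same threshold 0 were higher and 0 lower, beside 1.36% and 5.2% of all gene totals. Their median log2 fold change was -0.04, beside -0.06 over all gene totals. Slc17a7, the vesicular glutamate transporter of cortical excitatory neurons, was at 266 ± 5.51 FPKM in Ctrl and 236 ± 38.0 in Gsk3sKO (adjusted p = 0.861), and Slc1a2, the main astrocytic glutamate transporter, at 98.7 ± 10.4 and 107 ± 13.9 FPKM (adjusted p = 0.916). None of the genes in the 3 lists had an adjusted p under 0.05.

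**Figure D5:**
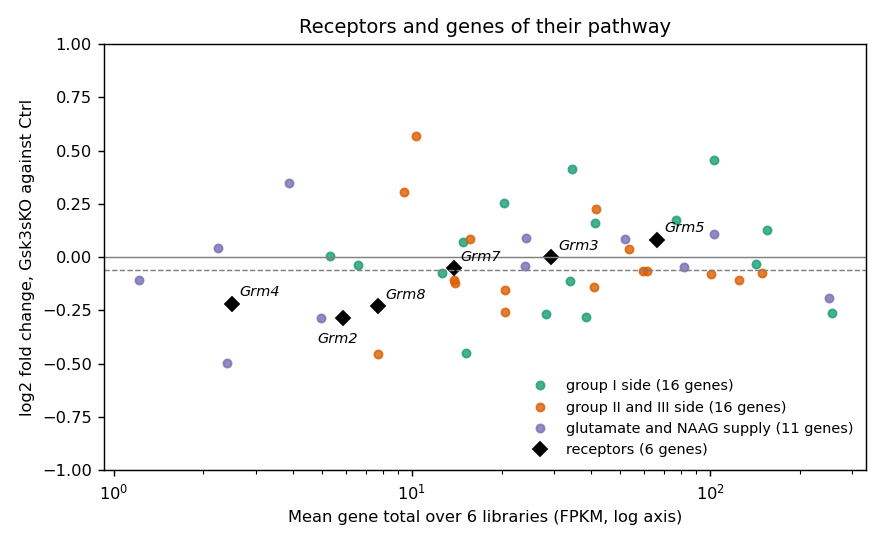
Log2 fold change of Gsk3sKO over Ctrl (vertical axis) against the mean FPKM over 6 libraries (horizontal log axis) for the genes of the 3 partner lists and for the 6 receptors, each named. The receptors lie within the range of their partners, and no point has an unadjusted p under 0.05.

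Markers of other cell types moved in part with the groups. Of 10 oligodendrocyte markers, 4 were lower in Gsk3sKO (limma, unadjusted p under 0.05, beside 5.2% of all gene totals) and 0 higher, and 0 passed after adjustment. They were Mog, at 3.23 and 0.602 FPKM and listed at 0 in Gsk3sKO replicates 2 and 3, Mag, at 5.80 and 3.21 FPKM, Cnp, at 13.5 and 7.99 FPKM, and Cldn11, at 5.26 and 3.09 FPKM, all genes of myelin, while the summed level of the list was 139 to 209 FPKM in Ctrl and 153 to 194 FPKM in Gsk3sKO. Of 8 microglia markers tested, 2 were lower, the complement genes C1qa (5.07 and 2.53 FPKM) and C1qb (8.54 and 5.08 FPKM), and the summed level of the list was 42.2 to 53.9 FPKM in Ctrl and 31.4 to 41.3 FPKM in Gsk3sKO. Of 9 excitatory neuron markers, 1 was lower, the deep-layer transcription factor Tbr1 (27.4 and 20.6 FPKM, log2 fold change -0.40, adjusted p = 0.726). Of the 12 astrocyte, 8 endothelial, 10 inhibitory neuron, 8 dopaminoceptive neuron and 2 oligodendrocyte precursor markers tested, 0 were higher and 0 lower. The part of these cells in the lower Grm2, Grm4 and Grm8 estimates was not tested.

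The genes whose gene totals followed each receptor most closely over the 6 libraries were found by Pearson correlation of log2(FPKM + 1) among 8463 gene totals with a mean of at least 5 FPKM. With 6 points that share library depth and composition, these values are a description, and 24 to 118 genes had r above 0.9 with each receptor. The closest to Grm5 were Stip1 (r = 0.988), Tmem196 (0.981) and Cic (0.978). The closest to Grm3 were Btbd6 (0.992), Vps52 (0.990) and Bud13 (0.988), and to Grm2 Snord68 (0.997), Gm25291 (0.992) and Tmx2 (0.988). For group III they were Dnajc28 (0.994), Chmp3 (0.968) and Aasdhppt (0.965) with Grm7, Gm23145 (0.991), Pgbd5 (0.987) and Fam216a (0.985) with Grm8, and Slc6a7 (0.992), Ap4s1 (0.991) and B230219D22Rik (0.990) with Grm4. Among the receptors themselves, Grm2 and Grm4 varied most alike (r = 0.948), with both lowest in Gsk3sKO replicates 2 and 3, and Grm5 and Grm8 varied most in opposite directions (r = -0.838).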

How the data were processed

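Ribosome-associated RNA was sequenced from 3 Ctrl and 3 Gsk3sKO libraries, grouped by the submitters' labels. The authors deposited FPKM values per transcript and library. The submitters' processing notes name HISAT2 2.1.0, SAMtools 1.9, StringTie 1.3.4d and GRCm38. Their settings were not given in the sources used. The authors also deposited a fold (ratio), a p-value and a q-value of their own comparison for each transcript, which were not used. All columns of library values were used (0 left out).

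FPKM was summed by gene identifier. Rows with a mean of 1 FPKM or more were tested with limma 3.58.1 (R 4.3.3, eBayes with trend, pseudocount 1, 2-sided, Benjamini-Hochberg over all tested). Exact permutation tests of single values used scipy 1.17.1 and numpy 2.4.6. The scripts were tested on simulated data. Coordinates and sequences come from GENCODE M21 on GRCm38, aligned with Biopython 1.88. Tables and figures used Python 3.11.15, pandas 2.3.3 and matplotlib 3.10.9.

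The receptors and lists were chosen with earlier results of these data known. Named genes are the receptors, their transcripts that were tested, Gsk3b, listed genes with an unadjusted p under 0.05, the 2 highest of each partner list and the 3 most correlated genes of each receptor. Homer1, Pick1, Elfn1, Elfn2, Gm23935, Drd2, Adora2a and the untested Grm2-202, Grm4-202 and Grm7-203 were named outside this rule, after their values were seen. Alternatives were the pseudocount, filter, scaling, variance model, replicate block and leaving out each library.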

Additional observations from a re-analysis of the deposited data

How the results depend on the processing

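Each receptor was recomputed with pseudocount 0.1, no filter, a filter of 5 FPKM, 2 other scalings, no shared variances, a replicate block and without each library. The number of receptor gene totals with an unadjusted p under 0.05 stayed at 0, except 1 (Grm8, beside 5.40% of all) without shared variances. The number of transcripts stayed at 0, except 1 (Grm7-203) with no filter, and ranged from 0 to 1 when each library was left out (Grm2-203 without Ctrl replicate 3). Of all transcripts tested, 2.75% passed with no filter and 6.08% without Ctrl replicate 3. The order of the receptors held in 5 of 5 pairs with pseudocount 0.1 and without each library. Since the order was the same in every library, neither change could alter it, and this is no check of the order. Grm4 was not tested at 5 FPKM. The median log2 fold change of all gene totals was -0.06, and moved to -0.00 with median ratio scaling and 0.10 with scaling to the sum without Gm23935, and the share of calls that were lower went from 79.3% to 62.1% and 46.5%. Under these scalings Grm3 turned to 0.062 and 0.19 and Grm7 to 0.010 and 0.14. With pseudocount 0.1, Grm5-204 (ENSMUST00000155358) turned to -8.1e-06. Directions that turned when 1 library was left out had log2 fold changes from -0.084 to 0.059 (Grm3), -0.099 to 0.0031 (Grm7), -0.11 to 0.14 (Grm5-204), -0.016 to 0.27 (Grm5-201, ENSMUST00000107263), -0.44 to 0.50 (Grm5-205, ENSMUST00000208776), -0.32 to 0.67 (Grm2-201, ENSMUST00000023959) and -0.62 to 0.68 (Grm8-203, ENSMUST00000115324), the cause of which was not tested. Calls among all transcripts were 1200, and 1917 with no filter and 590 at 5 FPKM. Replicates of the same number did not vary together (r of -0.03, -0.01 and -0.08), and no Ctrl library correlated best with its own number. The replicate block called 0 of 6 receptor gene totals and 0 of 14 transcripts, with 821 of all gene totals against 844 without it.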
